A study of Mus musculus with 2 samples.

Results

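EP300 binding was examined at 10 classic target genes of the glucocorticoid receptor in the newborn mouse heart. The genes are Fkbp5, Tsc22d3, Dusp1, Sgk1, Ddit4, Tgm2, Mt1, Mt2, Cebpb and Cebpd. Their peaks were chosen by position: a peak of the authors' optimal list belonged to a gene when the protein-coding transcript start nearest to its summit lay within 100 kb and was a start of that gene. By this rule 69 peaks fell to the 10 genes, of 15570 peaks assigned to any of 21864 protein-coding genes and of 17339 peaks on the main chromosomes. The genes were selected on the presence of such peaks in these data, so that each of them has a peak is a description and not a result.

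The data are 2 EP300 ChIP-seq libraries from heart tissue of mice of the strain labelled B6NCrl, taken at postnatal day 0. They form 1 group, the labels name no treatment or genetic change, and the sex of the animals was not collected. Both libraries carry the same biosample and donor identifier, so the spread between them may be technical. The signals quoted below are the authors' own values for each peak, whose formula is not given in the sources used here. They are given for the optimal list, which was drawn from the pooled calls, and for the list of each replicate. The 3 lists are scaled separately, so peaks are compared by rank within a list.

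The glucocorticoid receptor is a hormone-activated transcription factor held in the cytoplasm by heat shock protein complexes until corticosterone, the main glucocorticoid of mice, enters the cell. It then binds DNA as a dimer at the glucocorticoid response element, an inverted repeat of hexamers, and recruits coactivators, among them the histone acetyltransferase EP300. Glucocorticoids rise before birth and promote maturation of the heart. The receptor itself was not assayed here, and EP300 is recruited by many other factors.

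The sequences that carry the main observation are the full elements at EP300 summits. A full element was defined as AGAACA, any 3 bases, then TGTTCT, with at most 2 mismatches over the 12 fixed bases, lying wholly within 100 bp of a summit on either strand. Of the 69 peaks, 8 held such an element and 3 of these matched all 12 fixed bases, at Fkbp5, Sgk1 and Ddit4. The stretches below are from the mm10 (GRCm38) genome, written 5′ to 3′ on the strand of the gene, with the element in capitals and 30 bases on each side. They are shown because the 3 full matches can be read against the mismatched elements of Fkbp5 and Tgm2.
Fkbp5 intron, chr17:28420291-28420365, minus strand: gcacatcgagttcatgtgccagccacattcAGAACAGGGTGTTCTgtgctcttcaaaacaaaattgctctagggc
Ddit4 upstream, chr10:59974243-59974317, minus strand: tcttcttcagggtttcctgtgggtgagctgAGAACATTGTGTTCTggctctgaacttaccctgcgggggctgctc
Sgk1 upstream, chr10:21993671-21993745, plus strand: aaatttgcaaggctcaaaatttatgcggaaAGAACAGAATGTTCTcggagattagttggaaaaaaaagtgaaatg
Fkbp5 upstream, chr17:28523147-28523221, minus strand: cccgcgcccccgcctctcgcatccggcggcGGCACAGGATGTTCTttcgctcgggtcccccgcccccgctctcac
Tgm2 intron, chr2:158128014-158128088, minus strand: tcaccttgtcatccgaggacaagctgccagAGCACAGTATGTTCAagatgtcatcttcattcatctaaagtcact

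The 3 full matches share both hexamers and differ in the 3 bases between them. Counting positions from 1 at the 5′ end of the element, with the consensus base first, the upstream Fkbp5 element carried A1G and A3C and kept an intact right-hand hexamer. The Tgm2 element carried A3C and T15A. The best elements of the remaining 3 peaks lay farther from their summits and are shown as 15 bases each, as is another at the overlapping Dusp1 call, with their positions on the minus strand of mm10.
Dusp1 downstream, first call, chr17:26504353-26504367: AAAACAAACTGTTTT
Dusp1 downstream, overlapping call, chr17:26504424-26504438: AGAAGAACTTGTCCT
Dusp1 downstream, overlapping call, another element, chr17:26504444-26504458: AGAGCCTTGTGTTCT
Ddit4 downstream, chr10:59921430-59921444: AGAACACCGTCTTCC
The Dusp1 elements carried G2A and C14T in the first call and C5G and T13C in the first one listed for the overlapping call, and the Ddit4 element carried G11C and T15C. These 3 were centred 74, 59 and 81 bp from their summits, and the other Dusp1 element, also with 2 mismatches, 39 bp from its summit. The 5 elements printed with their flanks were centred 9 to 29 bp from theirs.

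The 10 genes held 6.9 optimal peaks each on average, against 0.712 per gene over all 21864 protein-coding genes, of which 31.8% had at least 1 peak. The average over all genes includes 14904 genes without a peak, whereas the 10 genes were chosen for having peaks. These averages are therefore unlike, and no excess is read from them. The number of peaks per gene ran from 16 at Tgm2 and 13 at Ddit4, through 9 at Dusp1, 8 at Fkbp5, 7 at Sgk1, 5 at Cebpd, 4 each at Tsc22d3 and Cebpb and 2 at Mt1, to 1 at Mt2. Neighbouring calls of 1 fixed width often overlap, and joining summits closer than that width left 53 sites, 16 of which held more than 1 call. Ranked among all genes by the sum of their peak signals, Ddit4 was number 8, Tgm2 number 31, Fkbp5 number 47, Dusp1 number 149 and Sgk1 number 185. Mt1, at 1891, and Mt2, at 6171, stood lowest.

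Most of this binding was distal to protein-coding starts. Of the 69 summits, 13 lay within 1 kb of such a start, which is 18.8% (95% exact Clopper-Pearson interval 10.4% to 30.1%), against 37.3% of all assigned peaks. When starts of all transcripts were used, the 10 genes held 45 peaks, of which 28.9% were promoter-proximal. The share over all assigned peaks at this setting is not given, so this value cannot be set against the 37.3%. Ddit4, Tgm2 and Cebpb had no summit within 1 kb of a protein-coding start, whereas Sgk1 had 4. The median distance to the nearest start was 17.1 kb at the 10 genes and 5.25 kb over all assigned peaks. Introns held 28 summits, or 40.6% (28.9% to 53.1%), against 45.5% of all assigned peaks, intergenic DNA held 27, non-coding exons 7, untranslated regions 5 and coding exons 2.

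**Figure D1:**
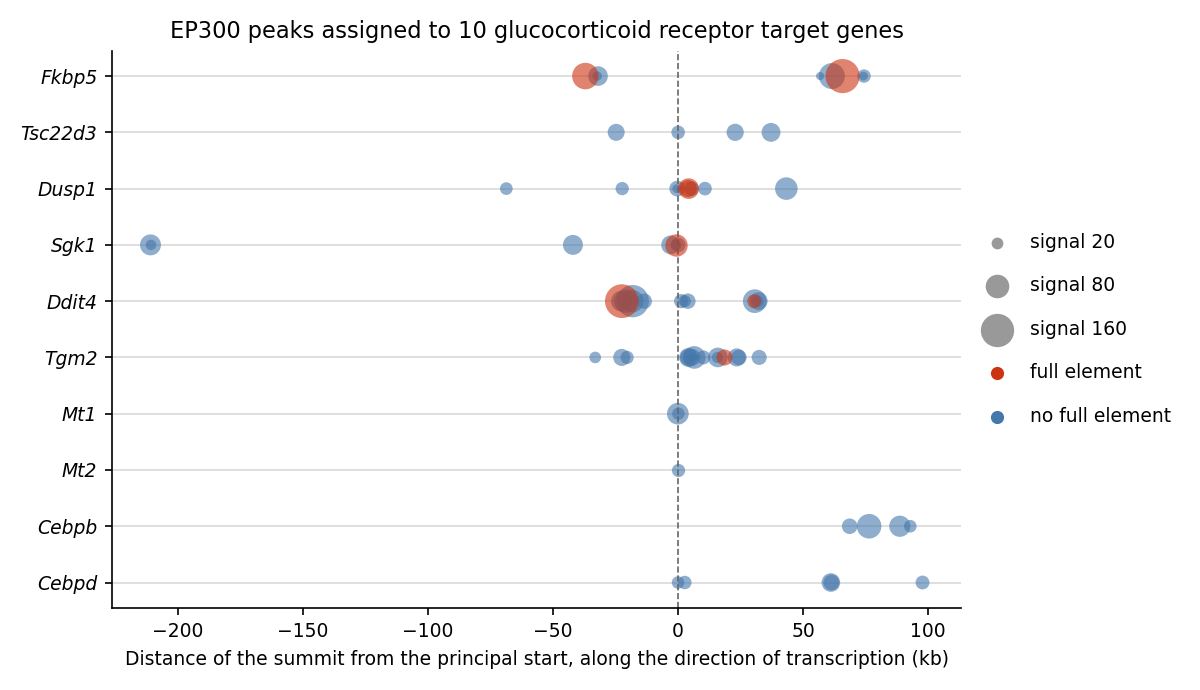
Position of each of the 69 EP300 summits relative to the principal transcript start of its gene, in kb along the direction of transcription, with point area proportional to the authors' signal and red for peaks that hold a full element. The strongest red points are the intron of Fkbp5, 65.8 kb from the principal start, and the Ddit4 peak 22.5 kb upstream, while the calls of Cebpb lie 68.6 to 92.9 kb downstream of its start.

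Fkbp5 encodes a co-chaperone that binds the receptor complex and lowers its affinity for hormone, and the gene is induced by the receptor in many tissues. Its 8 peaks (chromosome 17, gene ENSMUSG00000024222.17, 28399094 to 28517524, minus strand) were led by an intronic peak at chr17:28420213-28420491 that holds the full match printed above. Its signal was 168 in the optimal list, 92.2 in replicate 1 and 77.4 in replicate 2, with ranks 62, 68 and 58. It was thus among the leading 100 calls in each list, and its summit lay 12 bp from the centre of the element. This summit lies 21.4 kb from the nearest of the gene's 6 annotated coding starts and 65.8 kb from the principal one. The same window held another element with 2 mismatches, centred 35 bp from the summit.

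A further intronic Fkbp5 peak lay nearby at chr17:28424368-28424863. It had a signal of 97.2 in the optimal list, 43.9 in replicate 1 and 49.1 in replicate 2, and its best match to the element had 3 mismatches. Upstream of the gene, the peak at chr17:28523108-28523290 had a signal of 101 in the optimal list, 54.0 in replicate 1 and 49.0 in replicate 2. Its summit lay in an exon of the non-coding gene E230001N04Rik, in a window of 75.1% GC, and 47 bp from a non-coding transcript start of Gm20109. It lay 5.67 kb before the most upstream coding start of Fkbp5. A call of 55.1 stood 0.62 kb before that start, and no summit lay within 1 kb of the principal start. The remaining 4 Fkbp5 calls were weak, with signals of 9.53 to 25.8.

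Ddit4 encodes an inhibitor of mTORC1, the kinase complex that promotes growth, and is induced by stress and by glucocorticoids. Its 13 peaks surround a short gene with 1 annotated coding start (chromosome 10, ENSMUSG00000020108.4, 59949669 to 59951834, minus strand). The strongest, at chr10:59974141-59974432, lay 22.5 kb upstream and holds the full match printed above, 9 bp from the summit. Its signal was 164 in the optimal list, 97.1 in replicate 1 and 62.2 in replicate 2, with ranks 67, 56 and 114. Counting the starts of all transcripts, coding or not, this summit was nearer to Anapc16, at 16094 bp. The peak at chr10:59969795-59970047, 18.1 kb upstream, had 151 in the optimal list, 86.8 in replicate 1 and 53.4 in replicate 2, and its best element had 3 mismatches.

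Calls at Ddit4 fell into 3 stretches. From 13.5 to 22.7 kb upstream, 6 calls had signals of 34.0 to 164, and these included the strongest ones of the gene. From 30.5 to 32.2 kb downstream of the start, 4 calls had signals of 17.7 to 80.6. The strongest of this downstream stretch, at chr10:59920903-59921398, had 80.6 in the optimal list, 41.6 in replicate 1 and 34.2 in replicate 2. Close to the gene, 3 calls between 1.25 and 3.93 kb from the start had 21.1 to 34.4. Within 100 kb of Ddit4 lay 9 more optimal peaks that were nearer to Anapc16, Ascc1 or Dnajb12, with signals up to 56.4, so the assignment here is one of distance and not a measured link.

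Sgk1 encodes a serum- and glucocorticoid-induced kinase that regulates ion channels and transporters. Its strongest peak (chromosome 10, gene ENSMUSG00000019970.15, 21882184 to 21999903, plus strand), at chr10:21993431-21993926, had a signal of 72.1 in the optimal list, 41.7 in replicate 1 and 25.9 in replicate 2. It holds the third full match, which is centred 958 bp before the principal start and 29 bp from the summit. This peak lies in an Sgk1 intron, with its summit 211 bp before an alternative start, and is upstream of the principal start only. Of the 3 full matches it was the weakest peak, with ranks of 1191 in the optimal list, 1241 in replicate 1 and 2225 in replicate 2. The principal start itself carried a call of 30.8, which ranked 2487 in replicate 2 and 27409 in replicate 1.

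Away from this promoter, Sgk1 had an intronic peak of 57.3 in the optimal list, 26.4 in replicate 1 and 30.1 in replicate 2, at chr10:21952397-21952892. A peak of 51.2 near an alternative start, 2.94 kb before the principal one, had a signal of 21.1 in replicate 2 and no summit within 100 bp in the full replicate 1 list. The farthest pair of calls lay just inside the 100 kb limit, with the stronger, of 63.2, at 98.5 kb from the nearest start and 211 kb from the principal start. Just outside the limit, the nearest excluded peak of any of the 10 genes was a call of 36.0 lying 112 kb from Cebpb.

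Tsc22d3 encodes GILZ, a leucine zipper protein that mediates anti-inflammatory effects of glucocorticoids. Its 4 peaks (chromosome X, ENSMUSG00000031431.13, 140539528 to 140600659, minus strand) ranked 2944 to 10864 in the optimal list and held no full element with at most 2 mismatches. The strongest, at chrX:140505745-140506240, 37.2 kb downstream of the principal start, had 51.3 in the optimal list, 31.3 in replicate 1 and 19.1 in replicate 2. A peak 22.8 kb downstream had 42.7 in the optimal list and ranked 2692 in replicate 1 and 11275 in replicate 2. An intronic peak of 41.5, 24.7 kb upstream of the principal start, went the other way, with ranks of 13346 in replicate 1 and 1957 in replicate 2. The start carried a call of 26.5.

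Dusp1 encodes a phosphatase that switches off MAP kinases, and it is both an immediate early gene and a glucocorticoid target. Its strongest call (chromosome 17, gene ENSMUSG00000024190.7, 26505590 to 26562128, minus strand), at chr17:26464963-26465458, had 73.3 in the optimal list, 52.9 in replicate 1 and 22.7 in replicate 2. It lay 43.3 kb downstream and is the 1 peak of the 69 with the cAMP response motif TGACGTCA within 100 bp of its summit. Sequence of the peaks beyond these windows was not searched for this motif. The pair of overlapping calls with the Dusp1 elements printed above lay 4.19 and 3.98 kb downstream of the nearest start. The first of them had 61.4 in the optimal list, 31.3 in replicate 1 and 26.6 in replicate 2, and the overlapping one had 42.2 in the optimal list, 21.7 in replicate 1 and no summit within 100 bp in replicate 2. A call of 35.3 lay 0.34 kb before the principal start, with a signal of 27.6 in replicate 2 and no summit within 100 bp in replicate 1. The other 5 Dusp1 calls had signals of 10.7 to 30.4.

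Tgm2 encodes tissue transglutaminase, an enzyme that cross-links proteins of the extracellular matrix. Its 16 calls, in 12 sites, were the most numerous of the 10 genes (chromosome 2, ENSMUSG00000037820.15, 158116402 to 158146436, minus strand). None of them reached the signal of the leading Fkbp5 or Ddit4 peaks. The strongest, an intronic peak 6.48 kb from the start at chr2:158139711-158140206, had 73.8 in the optimal list, 48.5 in replicate 1 and 27.2 in replicate 2. Counting the starts of all transcripts, coding or not, its summit lay 223 bp from another Tgm2 start. Introns held 11 of the 16 summits, some of them also inside Rprd1b, which overlaps Tgm2.

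The Tgm2 element printed above belongs to an intronic peak at chr2:158127812-158128307, 18.4 kb from the start. This peak had 37.4 in the optimal list and 29.2 in replicate 2, where it ranked 1588, and no summit within 100 bp in replicate 1. The nearby peak 15.9 kb from the start also stood higher in replicate 2, at rank 1392, than in replicate 1, at rank 7416. The weakest of all 69 calls, with 6.95 in the optimal list, overlaps the strongest Tgm2 peak. The E-box CAGCTG was present in 5 Tgm2 windows, at 15.9 to 32.5 kb from the start.

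Mt1 and Mt2 encode metallothioneins, small proteins that bind zinc and copper, and their genes respond to metals through the factor MTF1 as well as to glucocorticoids. The genes lie 6.42 kb apart on chromosome 8 (Mt1, ENSMUSG00000031765.8, 94179082 to 94180327; Mt2, ENSMUSG00000031762.7, 94172664 to 94173568; both plus strand). All 3 calls lay at the starts, and none held a full element with at most 2 mismatches. The stronger Mt1 call, at chr8:94178763-94179258, had 67.7 in the optimal list, 39.9 in replicate 1 and 28.2 in replicate 2. Its summit stood 71 bp before the start, and an overlapping call of 22.2 had no summit within 100 bp in the list of either replicate. The Mt2 call, at chr8:94172396-94172891, had 25.3 in the optimal list, 9.36 in replicate 1 and 15.6 in replicate 2. Its ranks were 11601, 35298 and 7765, so it was far weaker than the Mt1 call in each list.

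The metal response core was searched as TGCACNC or TGCGCNC on both strands, and the promoter sequences are shown because the 3 calls overlap or adjoin them. The printed stretches hold the summit of the stronger Mt1 call, while those of the Mt2 call and of the weaker Mt1 call lie past their ends. The sequences come from the RefSeq promoter table for GRCm38.p6, which held 8 of the 10 genes (all but Tgm2 and Cebpd). Each stretch ends at the base before the first start of its gene in either annotation, which is the GENCODE start for Mt1 and the RefSeq start for Mt2, and each core is in capitals.
Mt1 promoter, chr8:94178839-94179081, plus strand: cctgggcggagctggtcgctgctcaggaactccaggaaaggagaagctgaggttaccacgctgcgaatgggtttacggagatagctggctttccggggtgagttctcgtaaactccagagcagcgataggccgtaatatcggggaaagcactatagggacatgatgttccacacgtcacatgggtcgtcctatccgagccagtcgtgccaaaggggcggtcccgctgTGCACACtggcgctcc
Mt2 promoter, chr8:94172368-94172617, plus strand: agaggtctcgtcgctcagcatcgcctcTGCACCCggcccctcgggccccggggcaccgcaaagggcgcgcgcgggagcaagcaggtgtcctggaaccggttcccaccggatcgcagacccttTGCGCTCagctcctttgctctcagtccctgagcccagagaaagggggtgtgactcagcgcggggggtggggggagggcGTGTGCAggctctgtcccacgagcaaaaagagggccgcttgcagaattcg
Mt1 has 1 core in this stretch, 16 bp before the start, and Mt2 has 3, of which 1 is on the opposite strand. In the whole 300-base windows, which run past the annotated starts, Mt1 had 3 cores and Mt2 had 4. Of 32851 promoter windows of that length, 25.7% held at least 1 core, 1.97% at least 3 and 0.517% at least 4. All 3 metallothionein peaks held the core within 100 bp of the summit, as did 8 of the other 66. In all that is 15.9% (8.24% to 26.7%), against 16.7% of all assigned peaks, so the core was not more frequent over the 10 genes than over the list.

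Cebpb and Cebpd encode CCAAT/enhancer binding proteins, basic leucine zipper factors that act in acute-phase and adipocyte programmes. The 4 Cebpb calls (chromosome 2, ENSMUSG00000056501.3, 167688915 to 167690418, plus strand) all lay 68.6 to 92.9 kb downstream of the gene. The strongest, at chr2:167765088-167765583, had 86.9 in the optimal list, 55.9 in replicate 1 and 30.2 in replicate 2. The next, in an exon of the non-coding gene Gm14321, had 64.6 in the optimal list, 33.1 in replicate 1 and 26.7 in replicate 2. Its summit lay 85 bp from a start of Gm14321. No Cebpb call remained when the limit was 50 kb or when starts of non-coding transcripts were counted, since these calls are nearer to Gm14321 and 9230111E07Rik.

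Cebpd had its strongest call 61.1 kb downstream, in an intron of Spidr, at chr16:15948172-15948667. Its signal was 49.96 in the optimal list, 30.7 in replicate 1 and 21.4 in replicate 2, and an overlapping call had 35.9 in the optimal list. At the gene itself (chromosome 16, ENSMUSG00000071637.5, 15887286 to 15891031, plus strand) a call of 22.7 lay at the start and another of 26.3 lay 2.70 kb into the transcript. The call at the start had 16.0 in replicate 1 and no summit within 100 bp in replicate 2. The farthest call, of 27.6, lay 97.8 kb away, just inside the limit. Neither gene had a full element at its summits.

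**Figure D2:**
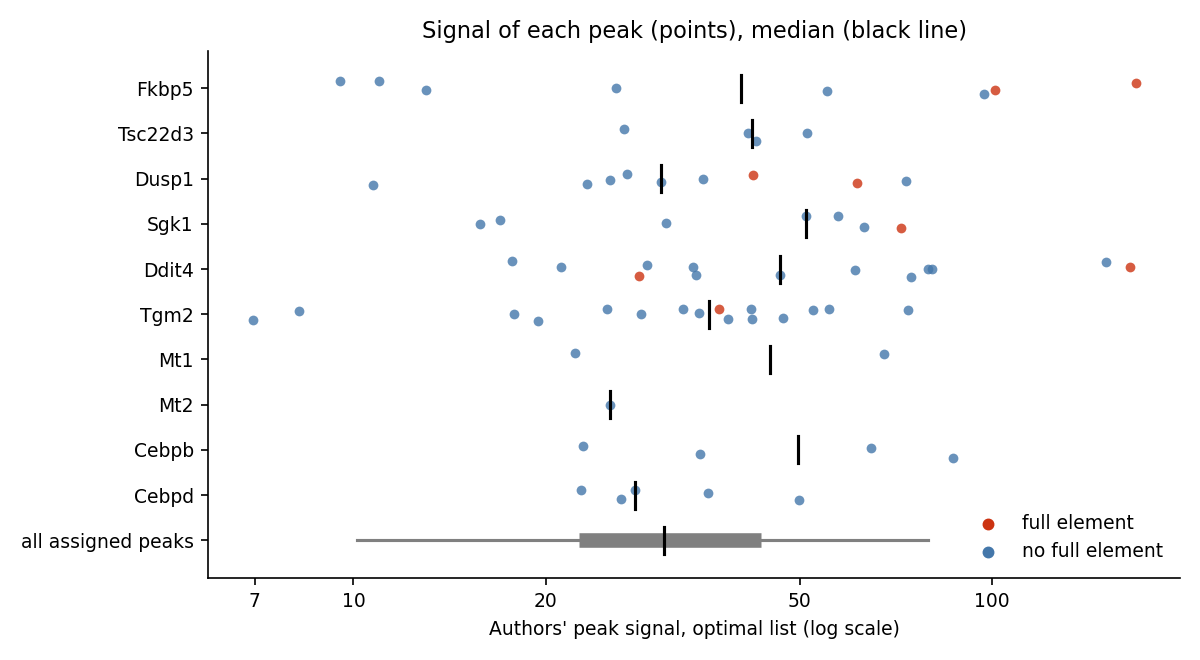
Authors' signal in the optimal list (log axis) of each peak of the 10 genes, with the median as a black line and red for peaks that hold a full element, above all assigned peaks (thick bar from the 25% to the 75% quantile, thin line from 5% to 95%). The median was 35.3 for the 69 peaks and 30.6 for all assigned peaks, and the points beyond 100 belong to Fkbp5 and Ddit4.

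Signals at the 10 genes spread widely around those of the whole list. The median signal of the 69 peaks was 35.3, against 30.6 over all assigned peaks, and the 95% quantile was 99.6, against 79.3. The top 10% of the optimal list by signal held 15 of the 69, or 21.7% (12.7% to 33.3%), against 9.96% of all assigned peaks. Of those 15, 4 were Fkbp5 or Ddit4 peaks with signals above 100. A deposited −log10 q of at least 2 was reached by 44 of the 69, or 63.8% (51.3% to 75%), against 57.5% of all assigned peaks. The conservative list also held 57 of the 69, or 82.6% (71.6% to 90.7%), against 67.2%.

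The replicates were compared at the same loci by asking whether a summit within 100 bp stood among the 17372 leading calls of each replicate list, as many as the optimal list holds. Both replicates held 35 of the 69 peaks, or 50.7% (38.4% to 63.0%), against 40.2% of all assigned peaks. Replicate 1 alone held 12, replicate 2 alone held 12, and neither held 10. The 35 peaks in both had signals of 26.3 to 168 and the 10 in neither 6.95 to 22.2. Ddit4 had 9 of its 13 peaks in both replicates, Tgm2 7 of 16, Fkbp5 4 of 8, Dusp1 2 of 9 and Mt2 0 of 1. The optimal list was itself drawn from these reads, so this share is no independent check of the peaks.

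Among the 17372 leading calls taken from each replicate on its own, the 10 genes were assigned 70 calls in replicate 1 and 70 in replicate 2. The counts by gene were 15 in replicate 1 and 14 in replicate 2 at Ddit4, 11 and 14 at Tgm2, 13 and 11 at Dusp1 and 10 and 8 at Fkbp5. Mt2 had 0 in replicate 1 and 1 in replicate 2. The pooled list holds 300000 calls and so reaches very weak signal. It assigned 277 calls to the 10 genes, of 202719 assigned to any protein-coding gene. Of the 277, 50 had a −log10 q of at least 2, and the share over all pooled calls is not given. The strongest pooled call missing from the optimal list was at Ddit4, with a signal of 48.1.

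**Figure D3:**
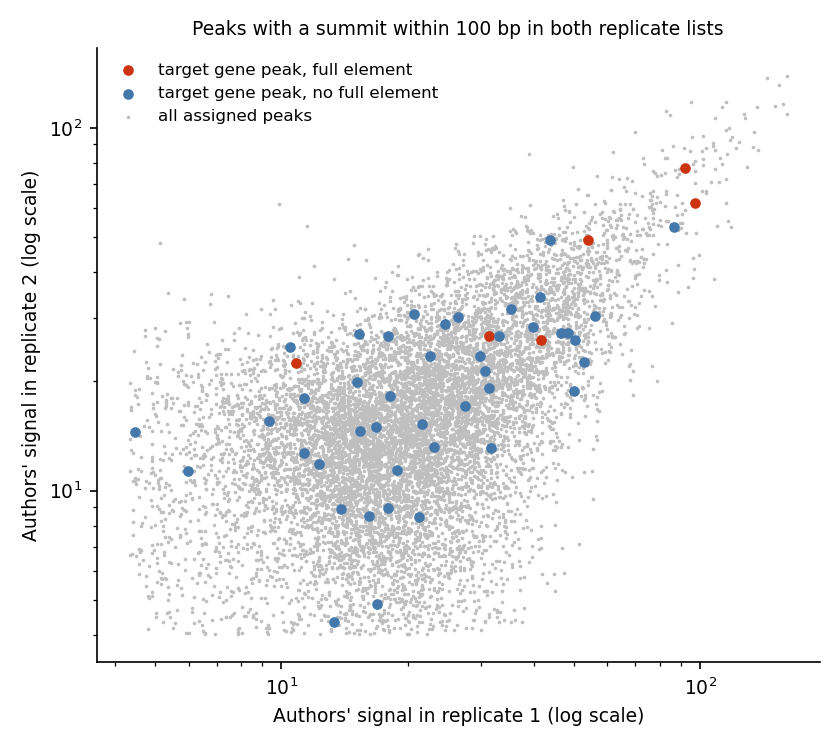
Authors' signal in replicate 1 (horizontal, log axis) and replicate 2 (vertical, log axis) for peaks with a summit within 100 bp in both full replicate lists, with all assigned peaks as small grey points and the peaks of the 10 genes in colour, red where a full element is present. The full matches of Fkbp5 (92.2 in replicate 1 and 77.4 in replicate 2) and Ddit4 (97.1 and 62.2) lie at the upper right.

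A full element with at most 2 mismatches stood at 8 of the 69 summits, or 11.6% (5.14% to 21.6%), against 2.43% of all assigned peaks. With no mismatch the counts were 3 of 69, or 4.35% (0.906% to 12.2%), against 10 peaks or 0.0642% of all assigned ones. Both intervals lie above the share over the whole list. No test is given, because the genes were chosen with results of these data known, and these intervals cover counting error only. Some of the 69 calls overlap, and with joined calls counted once the element stood at 7 of 53 sites, or 13.2%, against 3.01% of 12544 sites.

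The distance from the whole list depended on how closely the element had to match. Allowing 3 mismatches, 29.0% of the 69 peaks and 12% of all assigned peaks held it, but windows 1 kb to the lower- and higher-coordinate side of all assigned summits held it in 14.6% and 15.6% of cases. With no mismatch these flanking windows held it in 0.0128% and 0%. Strong peaks held it more often in general: of the 175 assigned peaks among the 200 of highest signal, 9.71% held an element with at most 2 mismatches and 1.14% one with none. Signal therefore moves with this share, and its part in the difference was not tested.

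**Figure D4:**
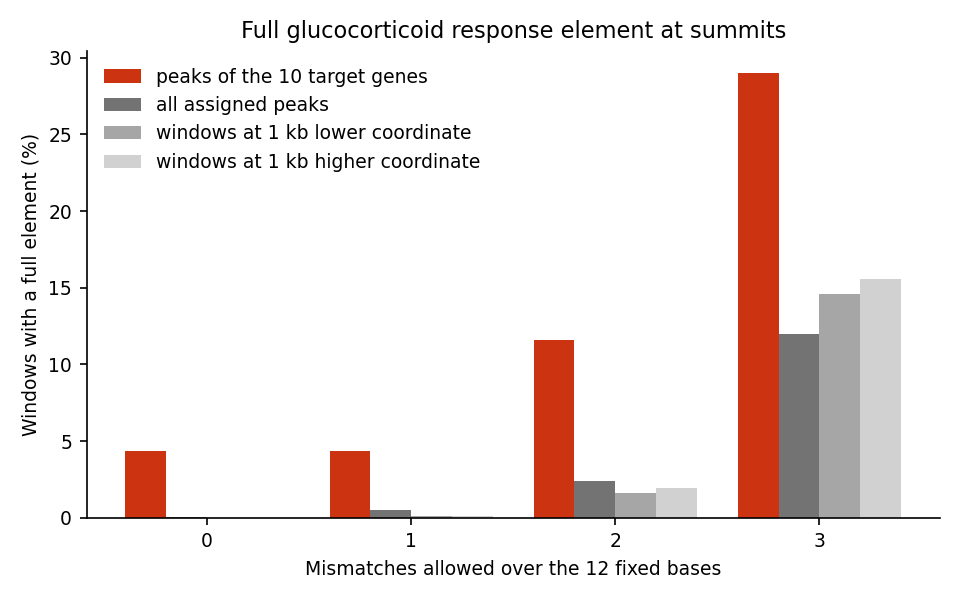
Share of windows, from 100 bp before to 100 bp after a position, with a full glucocorticoid response element (vertical axis, %) by the number of mismatches allowed over the 12 fixed bases (horizontal axis), at the summits of the 69 peaks of the 10 genes, at all 15570 assigned summits and in windows 1 kb to either side of all assigned summits. At 2 mismatches the 69 peaks stood at 11.6% and all assigned peaks at 2.43%, and at 3 mismatches the flanking windows (14.6% and 15.6%) stood above all assigned summits (12%).

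The 10 assigned peaks with an element free of mismatches included those of Fkbp5 and Ddit4, which were the strongest of the 10, and that of Sgk1, the sixth by signal. The others were nearest to St3gal5 (82.2), Plcg1 (76.2), Fry (75.8), Dennd1b (46.4), Syt4 (38.9), Fggy (24.2) and Spef2 (20.3). In the whole list, the strongest peaks with at most 2 mismatches lay elsewhere. They were an intronic peak of the clock gene Per1, with a signal of 299.8, and a Klf13 intron nearest to the start of E030018B13Rik, with 288, each with 1 mismatch. Intergenic peaks nearest to Tprg (266) and Irf2bp2 (262), both beyond the 100 kb limit, and an intronic peak of Zbtb16 (231) had 2 mismatches each.

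Other motifs were counted as exact matches on either strand in the same windows. The E-box CAGCTG stood at 21 of the 69 summits, or 30.4% (19.9% to 42.7%), against 17.4% of all assigned peaks, and it was spread over 8 of the 10 genes, with 5 each at Ddit4 and Tgm2. The letters AGATAA, bound by GATA factors, stood at 4, or 5.80% (1.6% to 14.2%), against 12.3%, and TEAD (ACATTCC) also at 4, against 5.44%. AP-1 (TGANTCA) stood at 3, or 4.35%, against 7.11%, and C/EBP (TTGCNNAA) at 2, or 2.90%, against 7.25%. The MEF2 motif stood at 0 of 69, with an exact interval of 0% to 5.21%, against 4.23%. The cAMP response motif stood at 1, or 1.45%, against 1.14%, and the serum response motif, known as the CArG box, at 1, against 1.42%. Of the 9 motif shares, counting the metal response core, that of the E-box had an interval that lies above the share over the list, and the other 8 intervals include it. The intervals treat overlapping calls as separate and take no account of 9 motifs being tried. No test is given, since genes and motifs were chosen with results of these data known. With joined calls counted once, the E-box stood at 20 of 53 sites, or 37.7%, against 20.9% of all sites.

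Beyond the 10 genes, 19 of 24 further genes known as glucocorticoid targets had an assigned peak, or 79.2%, against 31.8% of all protein-coding genes, with 73 peaks in all. Those with most were Txnip (9 peaks), an inhibitor of thioredoxin, and Per1, Klf9, Klf15 and Nfkbia (6 each), of which the Krüppel-like factors Klf9 and Klf15 are transcription factors and Nfkbia encodes an inhibitor of NF-kappaB. Zbtb16, a zinc finger transcription factor, followed with 5, tied with Pik3r1 and ahead of it by summed signal. Klf9 reached a signal of 205, Klf15 112 and Txnip 109. Errfi1, Lcn2, Tat, Pck1 and Anxa1 had no assigned peak, and Tat and Pck1 encode enzymes of liver metabolism. A full element with at most 2 mismatches stood at 11 of the 73 peaks, or 15.1%, against 2.43% of all assigned peaks, and none of the 73 was free of mismatches, against 0.0642%. This list too was chosen with results of these data known.

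Of 10 genes for the receptor and the proteins that act on it, 6 had an assigned peak, or 60.0%, against 31.8% of all protein-coding genes. The count was 4 in the conservative list, at a −log10 q of at least 2 and without replicate 2. The receptor gene Nr3c1 had 2, with signals up to 58.9, and Hsp90ab1, a cytosolic chaperone of the receptor, had 5. The mineralocorticoid receptor gene Nr3c2, the hormone-converting enzymes Hsd11b1 and Hsd11b2 and the co-chaperone Fkbp4 had none. As a check of the tissue, all 7 heart muscle markers had peaks, 99 in all, of which 3 held a full element (3.03%). Among contrast markers, 1 of 3 liver genes and 1 of 3 neuronal genes had a peak, with Alb, Apoa1, Neurod1 and Snap25 at 0. Liver Ttr had 1 peak of signal 32.5, and neuronal Rbfox3 had 2, with signals up to 93.7. Both contrast shares were 33.3%, against 31.8% of all protein-coding genes, so these few markers were not depleted of peaks.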

How the data were processed

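Per the labels, EP300 ChIP-seq was done on 2 samples of newborn heart, numbered as replicates of 1 group. The deposited descriptions state that peaks were called on mm10 from replicate 1 with 2 control files, from replicate 2 with 1 and from the pooled reads with 2. The optimal and conservative lists are peaks selected by irreproducible discovery rate (IDR). For aligner, peak caller, their versions and the IDR threshold, a value is not given in the sources used here. The deposited signal is the authors' value for each peak, of a formula likewise not stated, used within a list only, beside the authors' −log10 q, a deposited score (scaled IDR, at most 1000) and the deposited summit offset.

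No read counts were used, so the depth is unknown. Columns of no listed sample numbered 0. The 54363 distinct starts of protein-coding transcripts came from GENCODE M21, after checking that peaks and genes lay inside their chromosomes. The principal start is that of the APPRIS principal transcript, or of the lowest-numbered protein-coding transcript where none is so labelled. Shares carry 95% exact Clopper-Pearson intervals, which cover counting error only. Assignment, the matching of summits between lists and the scoring of the full element were tested on simulated data. Python 3.11.15 was used with SciPy 1.17.1 for intervals, pandas 2.3.3 and numpy 2.4.6 for tables, and matplotlib 3.10.9 for figures. The 10 genes, the other gene lists and the motifs were chosen with earlier results of these data known. Named are all 10 genes, their strongest peaks and all peaks with a full element, of the wider glucocorticoid and receptor lists together the 6 genes with most peaks and all with none, and the genes nearest to the 5 strongest peaks with an element. All other genes named were picked with their values in view. Alternatives were the conservative list, a −log10 q of at least 2, each replicate left out, other distances, starts, leading numbers, mismatches and windows, and joined calls.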

Additional observations from a re-analysis of the deposited data

How the results depend on the processing

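Of 67 alternative values of the main results, 58 stayed within 1.5 times the count or within the interval of the share above and 9 moved. With a −log10 q of at least 2 the 10 genes held 44 peaks, and 75% were found in both replicates. For this 75%, the share over all assigned peaks is not given. With starts of all transcripts they held 45 peaks in 32 joined sites, with an element share of 6.67%. That share is inside the interval of the 11.6% above, and the share over all assigned peaks at this setting is not given. Of the element peaks, both Dusp1 calls, the Tgm2 one, the upstream Fkbp5 one and the Ddit4 full match were then nearer to other genes. The share in both replicates was 72.5% with a wider limit on shared summits (53.4% of all assigned peaks), 30.4% with 5000 leading peaks (14.9%) and 65.2% with 50000 (56.1%). The element share was 4.35% at 1 mismatch (0.514%) and 29.0% at 3 (12%). Leaving out a replicate gave 70 peaks each time and element shares of 8.57% to 10%, with 9 to 10 genes holding a peak. Shares over all assigned peaks are not given for the lists without a replicate. Joining overlapping calls, an alternative chosen after seeing the data, gave 13.2%. By gene, 53 of 70 counts stayed within 1.5 times. Cebpb fell to 0 peaks within 50 kb or with all starts, Dusp1 to 2 with all starts, and Mt2 to 0 in the conservative list, at a −log10 q of at least 2 or without replicate 2. Counting every peak within 100 kb gave 22 at Ddit4 and 17 at Dusp1. The cause of these shifts was not tested. No paired analysis was possible because there is 1 group. Depth cannot be judged, so absent or weak calls cannot be told from low coverage.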
